A study of Mus musculus with 4 samples.

Results

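The azurophil granule genes described here are Mpo, Elane, Prtn3, Ctsg, Prss57, Ms4a3 and Nkg7, taken by their symbols from the gene list of the count tables, where they are 7 of 32285 genes. They were measured by single-cell RNA sequencing in myeloid-derived suppressor cells (MDSCs) generated in vitro. Bone marrow cells of wild-type (WT) C57BL/6J mice were grown for 4 days in medium with the cytokines GM-CSF and IL-6, both at 40 ng/ml. Isoproterenol (ISO), a synthetic catecholamine, was added at 10 µM to 1 culture and PBS to the other, which gave WT+ISO and WT+PBS, with 1 library each. These are 2 of the 4 libraries of the series, which were filtered and clustered together, so values by cluster and along maturation are over all 4 unless a library is named. The sample titles label the other 2 as negative for the β2-adrenergic receptor, without and with ISO. They gave 2790 and 2039 of the 9303 cells kept, so pooled values are not of wild-type cells alone. The mice were 6 to 10 weeks old, the number of mice behind each culture is not given in the sources used here, and live CD11b+ cells were sorted before capture. The cells therefore grew in a dish under 2 cytokines and passed a surface gate, and they stand for no population of the marrow itself.

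Azurophil or primary granules are the first granules that a developing neutrophil makes, at the promyelocyte stage. Their genes are transcribed in a short window, are shut off as the cell moves on to specific granule genes such as Ltf and Camp, and leave a stored protein in a mature cell that no longer holds the mRNA. Mpo encodes myeloperoxidase, which makes hypochlorous acid. Elane, Prtn3, Ctsg and Prss57 encode the neutrophil serine proteases neutrophil elastase, proteinase 3, cathepsin G and neutrophil serine protease 4. Ms4a3 encodes a membrane protein of granulocyte and monocyte progenitors. Nkg7 encodes a granule membrane protein best known from natural killer and T cells. Neither of these last genes encodes a classical azurophil enzyme, and both were kept as members because the list was fixed by symbol.

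After filtering, WT+PBS held 2210 cells with 24393687 UMIs (unique molecular identifiers, 1 for each captured transcript) and WT+ISO 2264 cells with 29400468 UMIs, at a median of 8089 and 10252 UMIs per cell, and all libraries together held 9303 cells. Cells of the samples were tagged and captured as a pool, so a library here is the set of cells assigned to 1 sample. The libraries shared 0 cell barcodes. CPM are counts of UMIs scaled to 1000000 UMIs of the library, cluster or bin named. With 1 library per group no difference could be tested, and the 95% intervals cover counting error only. Those of levels and ratios take each UMI as independent and leave out the spread between cells. In WT+PBS, 30 cells held 50% of the Mpo UMIs, so these intervals are too narrow for a difference between groups of cells.

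The members lie on 5 chromosomes (build GRCm38.p6, the same assembly as the mm10 named in the submitters' processing notes). Prss57 (chr10:79781474-79794684), Prtn3 (chr10:79879667-79883174) and Elane (chr10:79886312-79888216) are neighbours, with 3138 bases from the end of Prtn3 to the start of Elane and 84983 bases from Prss57 to Prtn3. Ctsg is at chr14:56099885-56102574, Mpo at chr11:87793784-87804412, Ms4a3 at chr19:11629499-11640851 and Nkg7 at chr7:43437138-43438246. RefSeq promoter sequences were matched for 6 of the 7 members, all but Prss57. The 250 bases upstream of the start are shown for the 4 members that hold GAGGAAG, a purine-rich sequence with the GGAA core that ETS factors such as PU.1 bind. The letters were chosen after the sequences had been read. Each is written 5′ to 3′ on the gene's own strand, with GAGGAAG in capitals.
Mpo, chr11:87793534-87793783, plus strand: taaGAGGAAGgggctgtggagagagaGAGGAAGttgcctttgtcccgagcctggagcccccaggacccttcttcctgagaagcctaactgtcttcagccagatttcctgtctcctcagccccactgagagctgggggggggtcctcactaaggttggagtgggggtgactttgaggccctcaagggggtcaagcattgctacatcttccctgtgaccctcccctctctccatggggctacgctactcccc
Elane, chr10:79886062-79886311, plus strand: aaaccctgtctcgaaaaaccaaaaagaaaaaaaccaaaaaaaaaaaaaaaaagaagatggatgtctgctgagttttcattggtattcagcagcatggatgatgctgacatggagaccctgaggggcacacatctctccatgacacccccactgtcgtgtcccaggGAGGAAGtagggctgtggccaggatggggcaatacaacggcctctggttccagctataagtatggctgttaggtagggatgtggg
Prtn3, chr10:79879417-79879666, plus strand: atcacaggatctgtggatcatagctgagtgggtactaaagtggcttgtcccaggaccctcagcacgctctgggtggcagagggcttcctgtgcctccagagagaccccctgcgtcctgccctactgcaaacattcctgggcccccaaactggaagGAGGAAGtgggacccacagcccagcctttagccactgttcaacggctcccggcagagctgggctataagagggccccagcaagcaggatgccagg
Ctsg, chr14:56102575-56102824, minus strand: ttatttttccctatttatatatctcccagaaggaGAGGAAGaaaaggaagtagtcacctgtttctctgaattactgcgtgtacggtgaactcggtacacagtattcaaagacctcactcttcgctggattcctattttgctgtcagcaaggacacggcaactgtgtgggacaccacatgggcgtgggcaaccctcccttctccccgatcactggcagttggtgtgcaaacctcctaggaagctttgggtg

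GAGGAAG, on either strand (CTTCCTC), was found in 4 of these 6 members and in 10.7% of the 32536 promoter windows of the same length. Since these letters were chosen from the members' own sequences, setting the shares side by side tests nothing. Elane and Prtn3, the neighbours on chromosome 10, carried it at 85 and 95 bases upstream of the start. Mpo carried it at 247 and 224 bases, and Ctsg at 216 bases. The sequence AACNGNC, the core that Myb binds (reverse GNCNGTT), was found in Ctsg, Elane, Mpo and Nkg7, 4 of 6, against 27.6% of all windows. The paired C/EBP half-sites TTGCNNAA (reverse TTNNGCAA) were found in 0 of 6 against 9.57%. A match describes the letters of this window only.

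Taken over the whole of each library, the 7 genes together made up 0.427% of the UMIs of WT+PBS cells and 0.556% of those of WT+ISO cells, a summed level of 4269 and 5563 CPM. In bulk sums of this kind, fewer cells of a type and less RNA per cell cannot be told apart, and the single cells are used for that below.

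The serine proteases were higher in WT+ISO by point value. Their counting intervals did not overlap, which leaves the spread between cultures unmeasured. Elane was at 1374 CPM in WT+PBS (1359.2 to 1388.7) and 1735 CPM in WT+ISO (1720.3 to 1750.4). Prtn3 was at 1424 and 1935 CPM, Ctsg at 493 and 633 CPM, and Prss57 at 60.8 CPM (57.7 to 64.0) and 73.8 CPM (70.7 to 76.9). Ms4a3, the progenitor membrane protein, was at 499 CPM (490.4 to 508.2) without and 763 CPM (752.7 to 772.7) with ISO, the largest ratio of the 7.

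Mpo, the peroxidase, was at 372 CPM (364.3 to 379.7) in WT+PBS and 373 CPM (365.9 to 379.9) in WT+ISO, whose intervals overlap almost entirely. Nkg7 was at 46.5 CPM (43.8 to 49.3) and 50.2 CPM (47.7 to 52.8), and these intervals overlap as well.

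**Figure D1:**
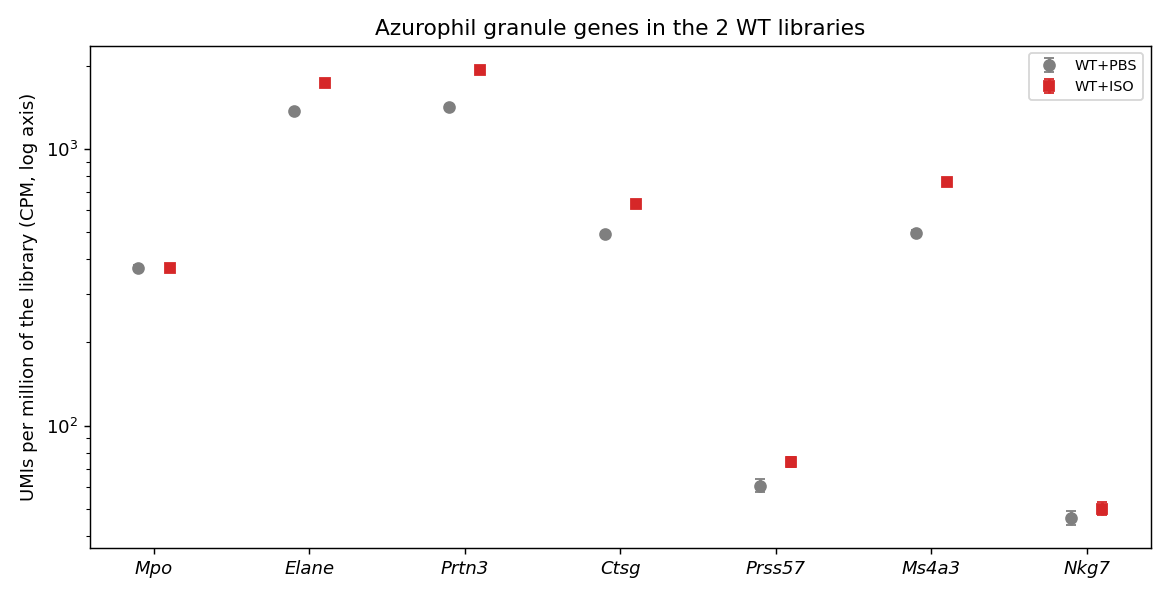
CPM of the library (log axis) for each of the 7 genes in WT+PBS (circles) and WT+ISO (squares), with 1 point per library and bars for the exact Poisson 95% interval, which covers counting error only. Elane, Prtn3, Ctsg, Prss57 and Ms4a3 lie higher in WT+ISO, and for Mpo the points coincide at 372 and 373 CPM.

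Few cells carried most of this RNA. Among all 9303 cells, 104 (1.12%) held 50% of the Mpo UMIs, 207 (2.23%) held 50% of those of Elane, and 236 (2.54%) held 50% of the UMIs of the 7 genes together. The richest cell held 655 UMIs of Elane, and in another the 7 genes were 5.93% of all its UMIs. A cell with at least 1 UMI was common for Prtn3 (40.9% of cells), Ms4a3 (36.0%) and Elane (30.4%), and less so for Ctsg (17.3%), Prss57 (16.99%), Mpo (12.2%) and Nkg7 (9.84%). Single UMIs were also common in other cell types. In macrophage-like cells, whose median depth of 14976 UMIs was close to the 15609 of the progenitor-like cells described next, 44.5% held at least 1 UMI of Prtn3, 29.6% of Elane and 8.996% of Mpo. In dendritic-like cells, at a median of 12420 UMIs, 17.3% held Prtn3. The level of Prtn3 was 118 CPM in the macrophage-like and 25.5 CPM in the dendritic-like cells, and that of Ms4a3 66.9 and 15.8 CPM, so these types did not share 1 level, and where the UMIs came from was not tested. A limit of at least 10 UMIs of the 7 genes together was therefore used to count rich cells.

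Rich cells by that limit were 20.3% of WT+PBS (95% Clopper-Pearson interval 18.6 to 22.0) and 30.2% of WT+ISO (28.3 to 32.2). These intervals take each cell as independent and leave out the spread between cultures, so they test no difference. With every cell thinned to 2000 UMIs, which removes the difference in depth and left out 181 and 127 shallower cells, the shares were 10.6% and 16.2%.

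Per gene, the share of cells with at least 1 UMI was also higher in WT+ISO by point value. In thinned cells Ms4a3 was found in 22.1% of WT+PBS and 33.6% of WT+ISO, Prtn3 in 22.9% and 33.5%, Elane in 19.0% and 24.2%, Ctsg in 10.6% and 14.8%, Prss57 in 5.77% and 7.86%, Mpo in 7.29% and 8.42%, and Nkg7 in 3.84% and 4.21%. Without thinning these shares were 35.0% and 49.2% for Ms4a3 and 12.8% and 15.8% for Mpo. A positive cell of WT+PBS held on average 32.2 UMIs of Mpo and one of WT+ISO 30.6.

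To see where the genes were expressed without using them to choose cells, all cells were clustered on 2000 variable genes from which the 7 had been left out. This gave 7 clusters. Cluster 6 (1637 cells, 17.6% of all) is called neutrophil progenitor-like: all 8 progenitor markers other than the members (Fcnb, Gstm1, Serpinb1a, Cebpe, Gfi1, Hdc, Plac8 and Clec12a) were found in at least 10% of its cells, and Gfi1, a repressor needed for neutrophil development, was among its 10 leading genes. Not all 8 were highest there. Hdc was at 11.3 CPM in cluster 6 and 95.2 CPM in cluster 4, Serpinb1a at 830 CPM against 959 CPM in cluster 5, and Cebpe at 503 against 552 CPM. Cluster 5 had 7 of the 8 in at least 10% of its cells. Cluster 6 also held specific granule RNA, with Ngp at 14012 CPM and Camp at 4450 CPM, against 31183 and 10384 CPM in cluster 5. Of its 1637 cells, 1150 had at least 100 UMIs of Ltf, Camp and Ngp together. The name thus covers cells of more than 1 stage. Cluster 5 (1035 cells) was led by specific granule genes such as Ltf and Camp, cluster 4 (1926 cells) by Retnlg and Mmp9 of mature neutrophils, cluster 0 (2112 cells) by macrophage genes such as Mrc1 and C1qb, and cluster 1 (104 cells) by Ccr7 and other dendritic cell genes. Cluster 2 (670 RNA-rich cells led by Muc13) and cluster 3 (1819 cells of low RNA content led by Gpnmb) met no marker list and stay unnamed.

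Cluster 6 held 82.0% of the UMIs of the 7 genes. The share was highest for Nkg7 (93.0%), then Mpo (88.8%), Elane (87.1%), Prss57 (83.3%), Ctsg (81.6%) and Prtn3 (79.6%), and lowest for Ms4a3 (70.9%). In cells thinned to 2000 UMIs, Prtn3 was found in 67.2% of cluster 6 and 11.8% of the macrophage-like cluster 0, Ms4a3 in 66.3% and 8.50%, Elane in 55.5% and 6.12%, Ctsg in 34.3% and 1.61%, Mpo in 24.7% and 1.42%, Prss57 in 22.2% and 0.332%, and Nkg7 in 13.6% and 0.285%. The clusters were made from these same libraries, so these values describe the clusters and test nothing. Within cluster 6 the genes were far from uniform: Mpo had at least 1 UMI in 36.3% of its cells and Ms4a3 in 89.9%.

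**Figure D2:**
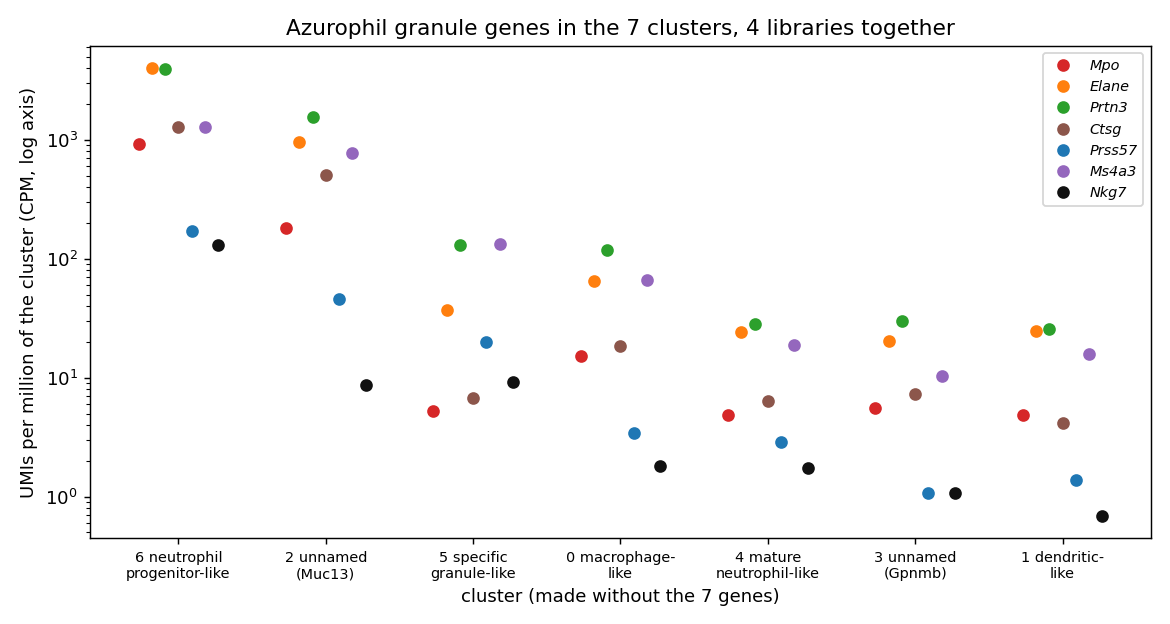
CPM of the cluster (log axis) for the 7 genes in each of the 7 clusters, with the 4 libraries together and 1 point per gene. All 7 genes are highest in cluster 6, 6 of them are next highest in cluster 2, and Nkg7 falls from 130 CPM in cluster 6 to 8.72 CPM there.

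Outside the neutrophil-like clusters, the unnamed RNA-rich cluster 2 carried the next highest levels, with 1566 CPM of Prtn3, 953 CPM of Elane, 778 CPM of Ms4a3, 506 CPM of Ctsg, 182 CPM of Mpo and 46.0 CPM of Prss57. Nkg7 was the exception at 8.72 CPM, against 130 CPM in cluster 6 and 9.22 CPM in cluster 5. Without thinning, at a median of 21701 UMIs per cell, 93.1% of cells of this cluster held Prtn3, 92.4% held Ms4a3 and 10.1% held Nkg7. In thinned cells these shares were 66.2%, 64.7% and 1.54%, against 67.2%, 66.3% and 13.6% in cluster 6. Of the UMIs of the 7 genes in cluster 2, Mpo made up 4.51% and Nkg7 0.216%, against 7.92% and 1.11% in cluster 6. Both WT libraries showed the low Nkg7 level there, at 9.66 CPM in WT+PBS and 6.56 CPM in WT+ISO.

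Cluster 5, the specific granule stage, held little of the enzymes with the shortest window. Mpo was at 5.25 CPM and Ctsg at 6.81 CPM, close to their levels in cluster 3 (5.53 and 7.28 CPM). Ms4a3 was at 134 CPM and Prtn3 at 129 CPM, against 10.4 and 29.8 CPM in cluster 3. In the macrophage-like cluster 0, Ms4a3 was at 66.9 CPM and Prtn3 at 118 CPM, near its level in cluster 5. The mix of the 7 genes also differed between clusters 5 and 6. Ms4a3 made up 39.2% of their UMIs in cluster 5 against 10.9% in cluster 6, Prss57 5.89% against 1.46%, Mpo 1.53% against 7.92% and Elane 10.8% against 34.2%. In the mature neutrophil-like cluster 4, each of the 7 was within the range of 1.73 CPM (Nkg7) to 28.6 CPM (Prtn3).

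The genes were found together in the same cells. Among cells of cluster 6 thinned to 2000 UMIs, 27.5% held at least 5 of the 7 genes and 4.25% held all 7, while 0 cells of each other cluster held all 7. Of all thinned cells with Mpo, 89.2% also held Prtn3, 86.2% Elane, 85.3% Ms4a3 and 77.1% Ctsg, whereas of cells with Ms4a3 only 23.6% held Mpo. Across the 1623 thinned cells of cluster 6, which share libraries and clustering, the rank correlation was highest between Elane and Prtn3 (Spearman's rho 0.87) and lowest between Prss57 and Nkg7 (0.22), both of which had few UMIs per cell.

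To order the members by when they decline, cells were ranked by a maturation index, the log2 ratio of late UMIs (Ngp, Camp, Ltf, Lcn2, Mmp8, Mmp9 and Retnlg) to early UMIs (nucleolar and endoplasmic reticulum genes such as Npm1 and Hspa5), each plus 1. None of the 7 genes enters it. Over all 8646 cells with under 0.5% of UMIs from macrophage and dendritic genes, every gene peaked in the lowest of 12 bins. The first fall to 50% of the peak came within a narrow stretch of the index, from -2.06 (Mpo) to -1.67 (Prss57). The order was Mpo, Ctsg, Prtn3, Elane, Nkg7, Ms4a3 and Prss57. All 7 values were interpolated between the medians of bins 1 and 2 (-3.05 and -1.62). Elane (54.2% in bin 5), Prss57 (69.9% in bin 7) and Nkg7 (78.6% in bin 7) later stood above 50% again. For these genes the value marks a first fall and no lasting decline. The limit had left many cells of clusters 0, 2 and 3 in the low bins. The ranking was therefore repeated on the 4598 cells of clusters 4, 5 and 6 alone, a choice made after seeing the data.

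In the neutrophil-like cells the genes separated into an early and a late group. From the first bin (index median -2.13) to the second (1.85), Mpo went from 2468 to 401 CPM and Ctsg from 3282 to 655 CPM, which left 16.3% and 19.95% of the peak. The other 5 still stood just above their 50% mark, with Elane at 50.2%, Prtn3 at 51.7%, Nkg7 at 56.2%, Ms4a3 at 56.4% and Prss57 at 57.2%. Mpo reached 50% of its peak at an index of 0.25 and Ctsg at 0.36, followed by Elane (1.86), Prtn3 (1.94), Ms4a3 (2.21), Nkg7 (2.22) and Prss57 (2.31). The values of Mpo and Ctsg were interpolated between the first 2 bin medians and depended on the bins. With 8 bins they were 1.28 and 1.39, before Elane at 2.01. With 20 bins they were -0.37 and -0.22, before Elane at 1.82.

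The fall to 10% of the peak spread them further. Mpo reached it at 2.51, Ctsg at 2.99, Elane at 3.89, Prtn3 at 4.33, Nkg7 at 4.90, Ms4a3 at 5.06 and Prss57 at 5.83. In the last bin, Ms4a3 was still at 64.8 CPM (2.90% of its peak) and Prss57 at 10.7 CPM (3.76%). The macrophage-like cluster 0 had 66.9 CPM of Ms4a3 and 3.43 CPM of Prss57. Mpo was at 5.78 CPM (0.234%) and Ctsg at 5.36 CPM (0.163%) in the last bin, levels like those of cluster 3. The summed specific granule genes went from 10157 CPM in the first bin to 102946 CPM in the last. The summed mature neutrophil genes went from 278 CPM in bin 1 to 3951 CPM in bin 4 and 5952 CPM in bin 12. Cells of the mature neutrophil-like cluster 4 were 1.30% of bin 1, 26.6% of bin 2, 48.3% of bin 4 and 50.7% of bin 12. The index thus follows specific granule RNA and does not place mature cells last. The part of cluster 4 cells in the early drops was not tested. The median number of UMIs per cell also fell along the index, from 24499 in the first bin to 6004 in the last, and its part in the order was not tested.

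Within these neutrophil-like cells, each WT library alone gave Mpo and Ctsg, in that order, as the first pair at the 50%, 25% and 10% marks. Over all cells at the 50% mark, WT+PBS gave Ctsg before Mpo and WT+ISO Mpo before Ctsg. At 10%, Elane, Prtn3, Nkg7, Ms4a3 and Prss57 followed in the same order in both. In WT+PBS their values were 3.88, 3.89, 4.56, 5.18 and 5.29, and in WT+ISO 4.27, 4.44, 4.93, 5.83 and 5.94. At the 50% mark the order of these 5 differed between the libraries, with Nkg7 first of them in WT+PBS (1.64) and Prtn3 first in WT+ISO (1.67).

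**Figure D3:**
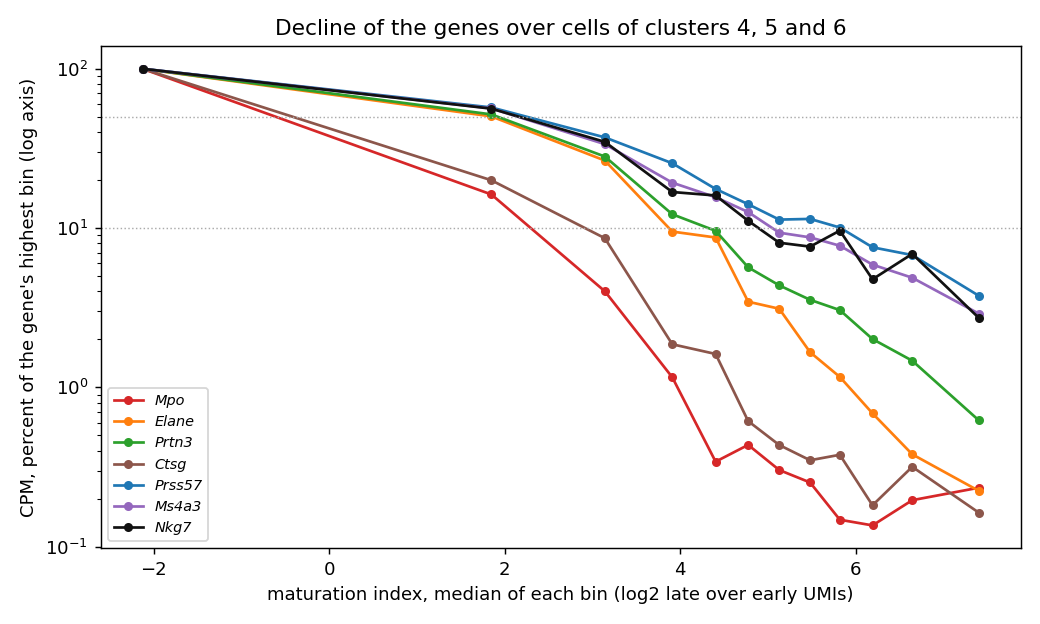
CPM of each of the 7 genes in percent of its highest bin (log axis) against the median maturation index of 12 bins of 383 or 384 cells from clusters 4, 5 and 6, with the 4 libraries together. Dotted lines mark 50% and 10%. Mpo and Ctsg drop first, to 16.3% and 19.95% in the second bin, and Prss57 reaches 10% last, at an index of 5.83.

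The comparison of the design asks what ISO changed in WT cells. Over whole libraries, the summed level of the 7 genes was 1.30-fold higher with ISO (log2 ratio 0.38, 95% counting interval 0.37 to 0.39). Ms4a3 differed most, at a log2 ratio of 0.61 (0.58 to 0.64), and it was the only 1 of the 7 past 1.5-fold up, against 1.66% of the 11852 genes compared (genes with at least 50 UMIs over both libraries). Past 1.5-fold down were 0 of the 7, against 6.82%. The call for Ms4a3 depended on the cells used. With each cluster held at its share of all cells its ratio was 0.24, and in cells with at least 90% of their tag UMIs from 1 sample tag it was 0.96, where 6 of the 7 genes were past 1.5-fold up (against 3% of 11543 genes), 0 were past it down (against 8.41%) and Mpo was at 0.54. Prtn3 was at 0.44, Ctsg at 0.36, Elane at 0.34 and Prss57 at 0.28. Mpo was at 0.0035 (-0.037 to 0.044), and Nkg7 at 0.11 (-0.0017 to 0.22) also had an interval that includes 0, but in the cells of that tag limit Nkg7 was at 0.74. The median of the 7 was 0.34 and that of all genes compared -0.019.

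Within cluster 6, which also held cells with much specific granule RNA, the picture was another. There the sum was at 11715 CPM in WT+ISO and 12760 CPM in WT+PBS, a log2 ratio of -0.12 (-0.14 to -0.11), and 6 of the 7 genes were lower with ISO: Mpo (-0.47), Nkg7 (-0.36), Prss57 (-0.26), Ctsg (-0.21), Elane (-0.14) and Prtn3 (-0.068). Ms4a3 alone was higher, at 1413 CPM against 1263 CPM (0.16, 0.12 to 0.20). Cluster 6 was at the same time a larger part of the library, 27.0% of WT+ISO against 17.2% of WT+PBS. With each cluster held at its share of all cells, the ratio of the sum was -0.049. Along the maturation index of the neutrophil-like cells, the first bin held 6.98% of WT+ISO and 4.62% of WT+PBS. In it Mpo was at 2112 CPM against 2973 CPM (-0.49) and Ms4a3 at 2371 CPM against 2119 CPM (0.16), and the sum was lower with ISO (-0.14). The later bins went both ways. The sum was lower with ISO in bin 2 (-0.11), bin 6 (819 against 1366 CPM, -0.74) and bin 11 (273 against 424 CPM, -0.63), and higher in bins 3, 4, 5, 7, 8, 9 and 10, by log2 ratios of 0.20 to 0.70. In bin 12 the interval included 0 (-0.50 to 0.41).

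**Figure D4:**
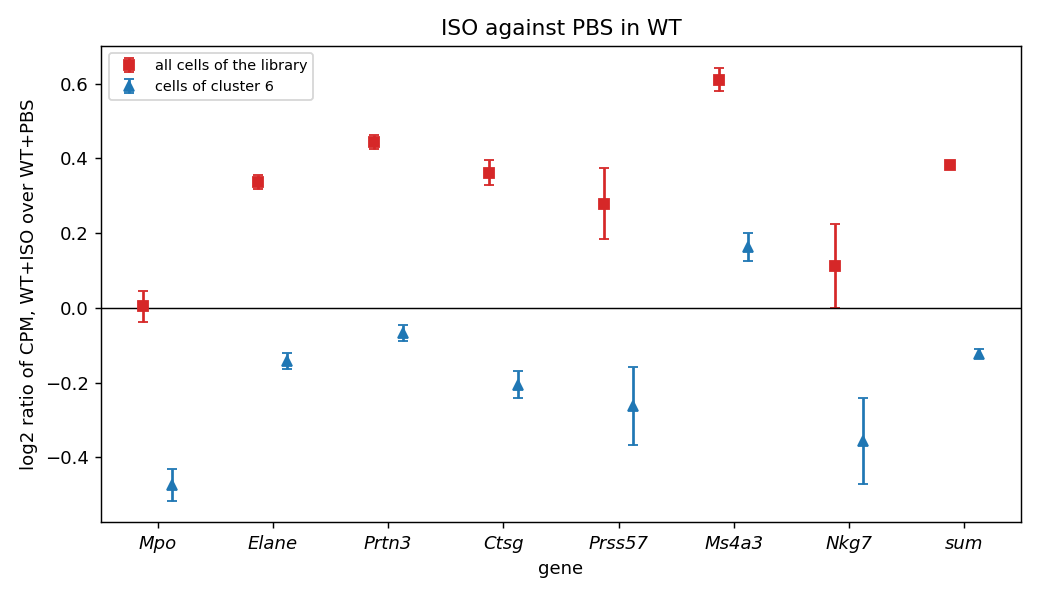
Log2 ratio of CPM, WT+ISO over WT+PBS, for each of the 7 genes and their sum, in all cells of the library (squares) and in cluster 6 (triangles), with bars for 95% counting intervals. In all cells the squares lie at or above 0, and in cluster 6 Ms4a3, at 0.16, is the only triangle above 0.

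Ms4a3 had the highest ISO ratio of the 7 and Mpo the lowest over all cells and within cluster 6.

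Sample tags moved with these results. The cells had been marked with sample tags and captured as a pool. UMIs of other samples' tags were a median of 65 per cell in WT+PBS and 47 in WT+ISO, but cells of cluster 6 carried less of their own tag than other cells, 475 against 1349 UMIs in WT+PBS and 717 against 1611 in WT+ISO. At least 90% of tag UMIs came from 1 tag in 39.2% of the cluster 6 cells of WT+PBS and 75.3% of those of WT+ISO. With only such cells kept (75.2% in WT+PBS and 88.6% in WT+ISO), the ISO ratio of the sum over all cells was 0.86, and cluster 6 made up 8.97% and 22.9% of the cells kept. Within cluster 6, cells at or above that limit gave an ISO ratio of -0.066 and cells under it 0.094. The lower levels within cluster 6 did not hold for most genes in both sets. Mpo was lower with ISO in both (-0.41 and -0.29) and Ms4a3 higher in both (0.19 and 0.28). At or above the limit, Elane (-0.057), Ctsg (-0.24) and Nkg7 (-0.28) were lower, while the intervals of Prtn3 (-0.010) and Prss57 (-0.092) included 0. Under the limit, Elane (0.12) and Prtn3 (0.14) were higher, Prss57 (-0.18) was lower, and the intervals of Ctsg (0.025) and Nkg7 (0.065) included 0. Cells too weakly tagged to be assigned are not analysed here, and the part of tag strength in the cluster shares and levels was not tested.

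Markers of other cells moved with ISO as well. Of 8 macrophage genes, 7 were past 1.5-fold lower with ISO in WT, against 6.82% of the 11852 genes compared. The macrophage genes summed to 109 CPM with ISO against 231 CPM without. All 8 dendritic cell genes compared were past 1.5-fold lower too, at a summed 354 against 1043 CPM, and 6 of 8 monocyte genes. The monocyte genes summed to 1660 CPM with ISO against 1878 CPM without. Ly6c2, the most abundant of them, was higher with ISO, at 1253 against 1017 CPM (0.30). Csf1r is in both the macrophage and the monocyte list. Of 10 eosinophil, basophil and mast cell genes, the sum was at 61.5 CPM without and 6.26 CPM with ISO, with Fcer1a at 0 UMIs. Prg2 alone was at 40.3 CPM without and 0.918 CPM with ISO. Cells with at least 3 UMIs of this list were few, 8 in WT+PBS and 9 in WT+ISO. Their number thus did not fall with the summed level. Of the 6 genes of this list compared, 4 were past 1.5-fold lower, while Mcpt8 (0.24) and Ms4a2 (0.44) were higher with ISO. Without the cells of cluster 6 that held at least 3 UMIs of that list (8 in WT+PBS and 7 in WT+ISO), the ISO ratio of the sum within cluster 6 was -0.16, with Mpo at -0.54 and Ms4a3 at 0.15. Of 12 natural killer and T cell genes, Gzma, Gzmb and Ncr1 had 0 UMIs and 6 others from 1 to 13, against 3968 for Nkg7. The other members of the list were Ccl5 with 2289 UMIs (1512 CPM in the dendritic-like cluster 1 and 0.458 CPM in cluster 6), Klrd1 with 166 (93.6 CPM in cluster 1 and 0.141 CPM in cluster 6) and Cd3d with 155 (1.20 CPM in cluster 6).

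Of 18 genes that handle or accompany granule proteins and were compared, 0 were past 1.5-fold up and 1 down with ISO in WT. The gene down was Gm2a (-0.86). Over all 11852 genes compared, 1.66% were past it up and 6.82% down, so counts this small do not set the list apart. The 4 of the list with the most UMIs were Lyz2 (lysozyme), at a log2 ratio of -0.17, Srgn (serglycin, the proteoglycan that packs granule proteases), at -0.20, Calr (calreticulin, a chaperone), at 0.12, and Slpi (a protease inhibitor), at -0.083. Ctsc, whose product activates the serine proteases by removing a dipeptide, was below them in UMIs and is named for that role: it was at 301 CPM in WT+ISO and 449 CPM in WT+PBS (-0.58), and at 67.3 CPM in cluster 6 against 899 CPM in cluster 0.

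Transcription factors of granule genes gave 0 of 11 past 1.5-fold up and 1 down with ISO in WT. The gene down was Irf8 (-0.67). For this list and those below, the shares over all 11852 genes compared were 1.66% up and 6.82% down. The 4 factors with the most UMIs were Cebpb (-0.065), Spi1, which encodes PU.1 (0.078), Runx1 (-0.038) and Cebpe, the factor of the specific granule stage (0.53). Progenitor markers other than the members gave 0 of 8 past 1.5-fold either way, with a sum at 0.34. Specific granule genes, the next stage, were 2 of 12 past 1.5-fold up, with a sum at 0.40 against 0.38 for the 7 azurophil granule genes. The other stages did not share this direction. Early progenitor genes such as Cd34 and Kit gave 1 of 8 up and 2 down, with a sum at -0.098. Mature neutrophil genes gave 0 of 10 up and 1 down, with a sum at -0.27. Of 14 proliferation genes 0 were past it either way, with a sum at 0.14. Of a list of 8 chromosome 10 neighbours, 6 were compared and 0 of these were past 1.5-fold either way. Genes of the region outside that list were not counted. Cfd, 2637 bases beyond Elane, had 8 UMIs in all.

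The genes whose pattern was most like that of the 7 together, by Pearson's r of log2(CPM + 1) over 26 sums of a cluster within a library with at least 20 cells, were Kcnk12 (r = 0.97), Plppr3 (0.97) and Ap3s1 (0.95) out of 10747 genes. These sums share cells of the same 4 libraries, and r is given as a description. For Mpo the nearest were Kcnk12, Nrg2 and Mcpt8 (0.95, 0.94 and 0.94), and for Elane Kcnk12, Gm15657 and Cst7 (0.97, 0.96 and 0.96). For Prtn3 they were Plppr3, Kcnk12 and Cks2, for Ctsg Plppr3, Kcnk12 and Gm15657, and for Prss57 Tecr, Tfdp1 and Cd79b. Ms4a3 was most like Cd79b and Tfdp1 (0.98 and 0.98), and Nkg7 most like Gfi1, Tecr and Rnaseh2c (0.93, 0.92 and 0.92). Among the members themselves r was highest between Mpo and Ctsg (0.98), the pair that declined first, and lowest between Ctsg and Nkg7 (0.81).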

How the data were processed

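The authors deposited, for each library, a matrix of raw UMI counts (not normalized), which its header credits to Cell Ranger 7.0.0, together with counts of multiplexing tags. The submitters' processing notes name Cell Ranger 6.0.0, Seurat and mm10. How barcodes were assigned to samples is not given in the sources used here. Groups follow the sample titles and the study, since the labels' treatment field gives isoproterenol for all 4 samples. Values by library are given for the 2 WT libraries, and some comparisons and genes are not reported here. Of 9525 barcodes, 9303 passed the filter (200 genes or more, mitochondrial share of 10% or less), and the 12 tags stayed out of totals.

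Ratios of CPM carry conditional binomial, levels exact Poisson and shares Clopper-Pearson intervals (95%). There was 1 library per group and hence no p-value. Clusters came from scanpy 1.11.5 (scaling to 10000, log, 2000 variable genes without the members, 30 principal components, 15 neighbours, Leiden resolution 0.4, seed 0). Scrublet called 17 cells doublets, and they were kept. Whether the caller missed doublets was not tested. The ratio intervals were tested on simulated independent counts without cells, which is the model they assume. That test cannot show whether they hold where few cells carry most UMIs.

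The members and gene lists were chosen with earlier results of these data known. Named are the members, the 4 genes of a list with the most UMIs and the genes most like each member (3, or 2 for Ms4a3); other genes are named for their role or were chosen after their values were seen. Alternatives were other cell filters, scalings, UMI limits, bins and clusterings. Positions and promoters are from RefSeq (GRCm38.p6).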

Additional observations from a re-analysis of the deposited data

How the results depend on the processing

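Each value rests on 1 library per group, so intervals leave out the spread between cultures. Those of levels and ratios also leave out the spread between cells. Low counts of Prss57 and Nkg7 limit the ratios of these genes most. No paired analysis was possible because the labels give 1 replicate per group and no result comes from a test. For the sum of the 7 genes, the ISO ratio in WT (0.38 on the log2 scale) was 0.42 with totals that leave out the 20 most abundant genes, 0.41 with median-of-ratios size factors, 0.54 when cells counted equally, -0.049 with each cluster held at a fixed weight, 0.86 in cells with at least 90% of tag UMIs from 1 tag, 0.41 without Mpo, 0.31 with equal weight per gene and -0.12 in cluster 6. The fixed weights remove differences in cluster shares by construction. For the tag limit the cause was not tested. The tag limit and the cluster 6 cells were chosen after seeing the data.

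The share of rich cells in WT+PBS and WT+ISO was 31.1% and 45.1% at a limit of 3 UMIs, 14.2% and 22.0% at 30 UMIs, 10.6% and 16.2% in thinned cells, 22.3% and 32.2% under a stricter filter (1000 genes, 5% mitochondrial share), and 14.7% and 26.9% by tag. The fall to 10% over all cells kept 9 of 21 pairs of genes in order, since Prss57 and Nkg7 did not reach it, and every other setting kept 17 to 21. The leading cluster held 82.0% of the UMIs in 17.6% of the cells. At resolution 0.2 it held 96.6% in 24.6% of the cells, and at resolution 1.0 71.6% in 6.08%. With 30 neighbours it held 83.8% in 18.3%. For single genes, 6 of 63 alternative values had the other sign, 5 of them with fixed weights and 1 under the stricter filter. These 63 leave out the values within cluster 6, where every gene but Ms4a3 had the other sign. Under the tag limit Mpo went from 0.0035 to 0.54, Nkg7 from 0.11 to 0.74, Elane from 0.34 to 0.88, Prtn3 from 0.44 to 0.90, Ctsg from 0.36 to 0.79, Prss57 from 0.28 to 0.95 and Ms4a3 from 0.61 to 0.96, so 6 genes were past 1.5-fold against 1. With fixed weights none was, and Ms4a3 was at 0.24.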

Other observations

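Cells were also picked by markers outside the 7 genes. Of the 760 cells with at least 1 UMI of Gfi1, 77.8% held at least 10 UMIs of the 7 genes together, and their summed level was 15805 CPM. Among 2900 cells with at least 2 UMIs of Mki67 or Top2a, genes of dividing cells, the share was 56.9%, and among 329 cells with at least 20 UMIs of Retnlg or Mmp9 it was 0.608%. Among 2983 cells with at least 100 UMIs of Ltf, Camp or Ngp it was 27.1%, at 3860 CPM and with 30.4% of all UMIs of the 7 genes. It was 62.7% with at least 3 UMIs of Fcnb or Gstm1 and 30.7% with at least 1 of Cd34 or Kit. It was 1.24% with at least 5 UMIs of C1q genes, 3.70% with at least 10 of H2-Ab1 or H2-Aa and 1.90% with at least 5 of Gpnmb. Gates overlap and depth differs between them, and no comparison was tested.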
